A study of Sus scrofa with 22 samples.

Results

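A set of 9 genes that mark antibody-producing cells and the B cells they come from was followed through the jejunal mucosa of Ossabaw pigs. They are JCHAIN, MZB1, TNFRSF17, POU2AF1, IRF4, CD79A, CD79B, MS4A1 and PAX5. They were taken by name from the deposited tables, each of which held all 9 among its 24358 genes, and all 9 were among the 13626 genes that passed the filter on low counts. The jejunum is the stretch of small intestine between duodenum and ileum, and its mucosa holds epithelium, connective tissue and many immune cells. Ossabaw pigs readily become obese and serve in studies of diet and metabolism. Pigs ate their diets for 6 months, and every library was made from whole mucosa and is taken as 1 pig. The 7 pigs called WD_S ate a Western pattern, rich in butter fat, cholesterol, sugar and white flour, and took atorvastatin. The 8 pigs called HHD_S ate a heart healthy pattern, rich in unsaturated oils, whole grain, fruit, vegetables and fibre, with fish oil capsules, and took atorvastatin too. The 7 pigs called HHD ate the heart healthy pattern with its fish oil and took no drug. Atorvastatin blocks HMG-CoA reductase in the cholesterol pathway; the daily dose was 20 mg and, after 3 months, 40 mg. Both patterns supplied 38% of energy as fat. Western-fed pigs without the drug were not analysed here. The series text attaches the abbreviation in the titles of WD_S to the Western pattern without drug, whereas the diet label of each of these samples names the drug, and the sample labels were followed.

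The lining of the gut is the body's main site of antibody secretion. B cells carry an antigen receptor whose signal is passed on by the paired chains CD79A and CD79B, and they mature in gut lymphoid follicles under the control of the transcription factor PAX5. When they become plasma cells they lose PAX5 and the surface protein MS4A1 (CD20), raise IRF4, and enlarge the secretory machinery that folds antibody. Most plasma cells of the small intestine make IgA dimers held together by the joining chain, JCHAIN, and the epithelial receptor PIGR carries these dimers into the lumen.

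The 22 libraries held between 15316437 and 31564022 unique exon reads. Values below are CPM, reads scaled to a common library total, after TMM scaling, an adjustment for library composition. A single read was worth between 0.0341 and 0.0663 CPM. The deposited files carry a pool number, 3 for 13 libraries and 4 for 9, and what the pools shared is not stated. Pool 3 held 3 WD_S, 5 HHD and 5 HHD_S libraries, and pool 4 held 4, 2 and 3. CPM are not scaled for transcript length, so levels were compared between libraries and not between genes. In whole tissue, fewer cells of a type and less RNA per cell cannot be told apart.

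None of the 9 genes passed the test for a difference between the groups. In the comparison of WD_S with HHD_S, which asks about the dietary pattern while all pigs took atorvastatin, edgeR's quasi-likelihood test called 0 of the 9, against 0% of all genes tested. At an unadjusted p under 0.05 it found 0 of the 9, against 2.92% of all genes. In the comparison of HHD_S with HHD, which asks about atorvastatin under the heart healthy pattern, it called 0 of the 9 (0% of all genes), and 0 had an unadjusted p under 0.05 (1.81% of all genes). In the comparison of WD_S with HHD, where diet and drug change together, it called 0 of the 9 against 0.00734% of all genes, and 0 against 3.41% without adjustment. A joint edgeR test over the 3 groups also called 0 of the 9 (0.00734% of all genes), with 0 under an unadjusted 0.05 (2.13% of all genes). DESeq2 and limma with quality weights called 0 of the 9 in each of the 3 comparisons as well. Unadjusted, limma put 4 of the 9 under 0.05 for WD_S against HHD_S (6.83% of all genes), 2 for HHD_S against HHD (9.39%), 0 for WD_S against HHD (9.9%) and 3 in the joint test (9.26%). DESeq2 put 0 of the 9 there in each of these, against 3.21%, 2.03%, 3.82% and 2.58% of all genes in the same order. The ranges of the 2 groups overlapped for each of the 9 genes in each comparison, while 0.0147%, 0.0147% and 0.0661% of all genes had ranges apart in the 3 comparisons in that order. These comparisons share libraries, the HHD_S pigs serving in the diet and the drug comparison and the HHD and WD_S pigs each in another pair.

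**Figure D1:**
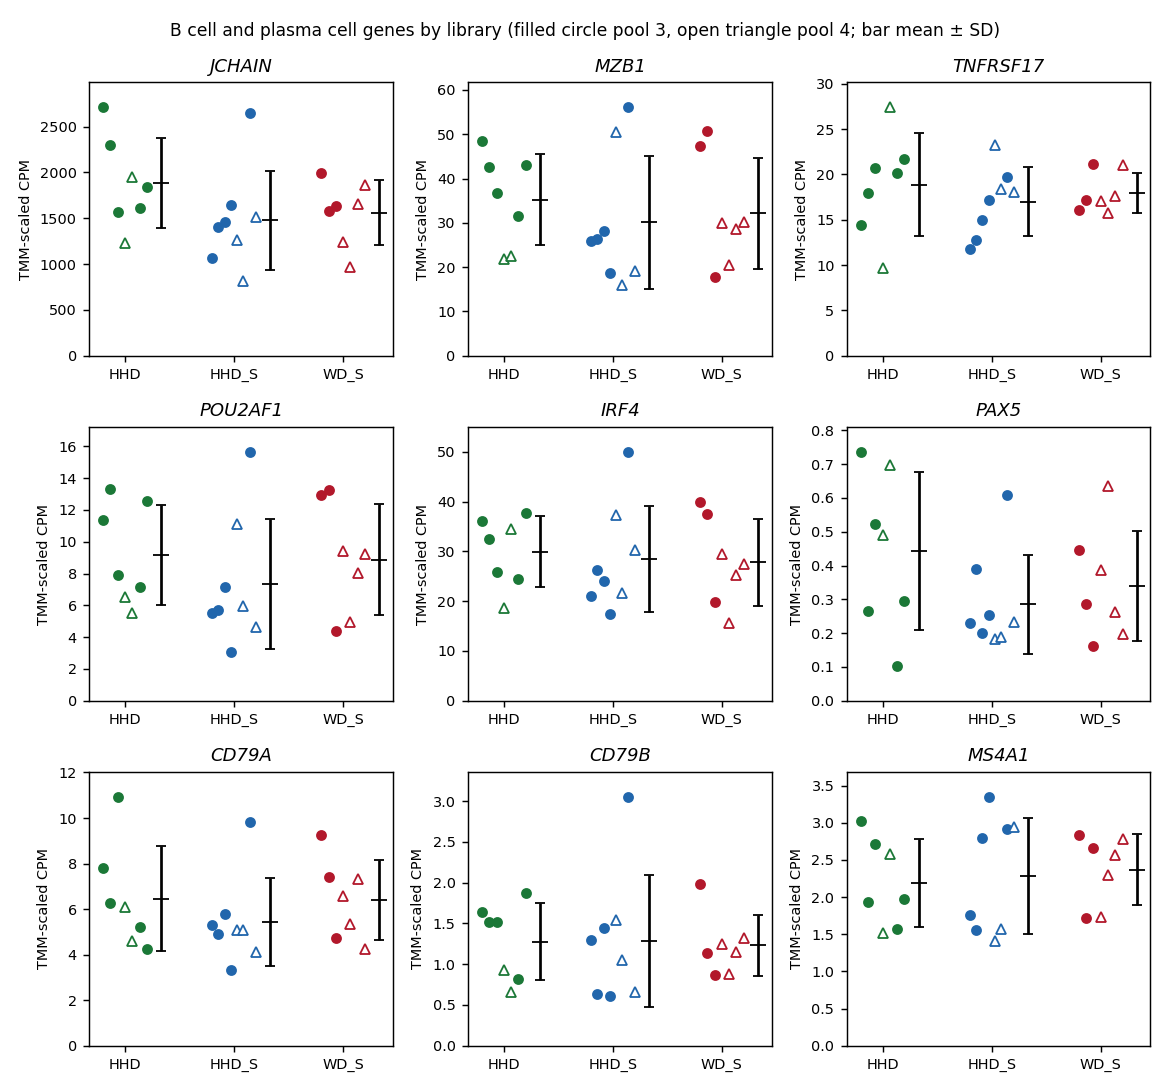
TMM-scaled CPM of each gene (vertical axes, starting at 0) in each library of the 3 groups, with filled circles for pool 3, open triangles for pool 4 and black bars for the mean ± SD of 7, 8 and 7 libraries. The groups overlap in all 9 panels, and the highest HHD_S library for JCHAIN, MZB1, POU2AF1, IRF4, PAX5, CD79A and CD79B is HHD_S 7.

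Among the plasma cell genes, JCHAIN (ENSSSCG00000035379, chromosome 8, 67439405 to 67448628, Sscrofa11.1, RefSeq gene span) links antibody monomers into dimers and pentamers. It ran from 1231 through a median of 1836 to 2711 CPM in HHD, from 814.9 through 1431 to 2648 CPM in HHD_S, and from 965.6 through 1638 to 1993 CPM in WD_S. The HHD pigs had the highest mean, 1887 ± 493.1 CPM (SD, n = 7), the WD_S pigs 1561 ± 352.9 CPM (SD, n = 7) and the HHD_S pigs 1477 ± 541.9 CPM (SD, n = 8). No neighbouring pair in that order differed beyond the spread. Of the 9 genes JCHAIN had the smallest p for the drug comparison: HHD_S stood at 0.796 times the HHD level, or -0.33 in log2 terms (SE 0.194, 95% interval -0.73 to 0.07), with an adjusted p of 0.9993 by edgeR. Its log2 fold change was -0.30 within pool 3 and -0.40 within pool 4. Without library HHD_S 7, which held 2648 CPM, it was -0.48 with an adjusted p of 0.9917. The diet comparison gave 0.16 (SE 0.198, 95% interval -0.25 to 0.57).

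MZB1 (ENSSSCG00000029239, chromosome 2, 141277541 to 141279652) is a chaperone of the endoplasmic reticulum that helps assemble antibody. Its values ran from 21.84 through 36.68 to 48.5 CPM in HHD, from 16 through 26.07 to 56.1 CPM in HHD_S, and from 17.73 through 29.88 to 50.7 CPM in WD_S. The highest library held 2.22 times the lowest in HHD, 3.51 times in HHD_S and 2.86 times in WD_S, so each group contained low and high pigs. The log2 fold change was 0.15 (SE 0.261) for WD_S against HHD_S and -0.14 (SE 0.262) for HHD_S against HHD. Without HHD_S 5 these were 0.47 and -0.37, without WD_S 2 the first was 0.05, and without HHD_S 4 the second was -0.0395. The drug value was -0.40 within pool 3 and 0.37 within pool 4, a difference between pools of 0.75 (SE 0.565, edgeR adjusted p = 0.9999 for the interaction). RefSeq places SLC23A1, a vitamin C transporter gene, and a long non-coding RNA over part of the MZB1 span, and how the counting treated strand is not given in the sources used here. SLC23A1 itself ran from 42 to 125 CPM, with a Pearson r of 0.04 and a Spearman rho of -0.02 with MZB1 over the 22 libraries.

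TNFRSF17 (ENSSSCG00000032578, chromosome 3, 31137672 to 31141862), also called BCMA, is the receptor through which plasma cells receive survival signals. It was the steadiest of the 9, with a coefficient of variation of 22.2% over all 22 libraries. Values lay between 9.67 and 27.41 CPM in HHD (median 20.13), between 11.76 and 23.28 in HHD_S (median 17.57) and between 15.74 and 21.1 in WD_S (median 17.13). Both the lowest and the highest library of the series were HHD pigs. The 95% interval of the log2 fold change was -0.29 to 0.41 for diet under atorvastatin and -0.52 to 0.18 for the drug under the heart healthy pattern. These are the narrowest intervals of the 9 genes in those comparisons. RefSeq places a long non-coding RNA over part of this gene.

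Of the transcriptional regulators, POU2AF1 (ENSSSCG00000015016, chromosome 9, 39121422 to 39144636) is a coactivator that B cells and plasma cells need for strong immunoglobulin gene expression. It ran from 5.544 through 7.889 to 13.3 CPM in HHD, from 3.041 through 5.855 to 15.64 CPM in HHD_S and from 4.406 through 9.214 to 13.24 CPM in WD_S. The lowest and the highest library of the whole series were both HHD_S pigs, HHD_S 4 and HHD_S 7, which differed 5.14-fold. POU2AF1 varied more between pigs than most genes of its level: its biological coefficient of variation was 39.5%, above that of 94% of the 500 genes closest to it in mean expression. The same share was 94.6% for MZB1 and 91% for IRF4. The log2 fold changes were 0.32 (SE 0.300, WD_S against HHD_S), -0.26 (SE 0.301, HHD_S against HHD) and 0.07 (SE 0.318, WD_S against HHD). Leaving out HHD_S 7 moved the first to 0.53 and the second to -0.52, with edgeR adjusted p of 0.9997 and 0.9917.

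IRF4 (ENSSSCG00000033381, chromosome 7, 133358 to 149609) is a transcription factor required for plasma cell formation that activated T cells also use. The HHD pigs lay between 18.63 and 37.71 CPM (median 32.54), the HHD_S pigs between 17.44 and 49.96 (median 25.1) and the WD_S pigs between 15.59 and 39.87 (median 27.44). Group means were close, at 29.95 ± 7.087 CPM (SD, n = 7), 28.48 ± 10.65 CPM (SD, n = 8) and 27.85 ± 8.763 CPM (SD, n = 7). The log2 fold changes were -0.01 (diet), -0.05 (drug) and -0.06 (both), each with a standard error between 0.22 and 0.231. Their direction changed between pools, the diet value being 0.24 in pool 3 and -0.29 in pool 4.

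PAX5 (ENSSSCG00000036086, chromosome 1, 237574938 to 237785454) maintains B cell identity. It was near the detection limit, with 3 to 18 reads per library. The HHD pigs ran from 0.1024 through 0.4889 to 0.7355 CPM, the HHD_S pigs from 0.1815 through 0.232 to 0.6097 CPM and the WD_S pigs from 0.1632 through 0.2854 to 0.6355 CPM. Counting error alone was wide: the 3 reads of HHD 6 gave an exact Clopper-Pearson interval of 0.0211 to 0.299 CPM, and the 18 reads of HHD 1 one of 0.436 to 1.16 CPM. Such intervals cover counting error only. Libraries with 9 or more reads were HHD 1, 3, 4 and 5, WD_S 1 and 5 and HHD_S 7. PAX5 thus passed the low-count filter mainly through HHD, the group with its highest mean. Its fold changes against HHD are therefore not independent of the filter. PAX5 had the most negative fold change of the 9 for the drug, -0.60 on the log2 scale (SE 0.379, 95% interval -1.38 to 0.19, edgeR adjusted p = 0.9993). That value was -0.17 in pool 3 and -1.54 in pool 4, where HHD had 2 libraries (edgeR adjusted p = 1 within pool 4). The interaction of drug and pool had an unadjusted p of 0.0952 by edgeR, and its adjusted p was 0.9999.

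At the B cell surface, CD79A (ENSSSCG00000033684, chromosome 6, 49996116 to 49999294) is a signalling chain of the B cell receptor that plasma cells also keep to a degree. It ran from 4.25 through 6.084 to 10.92 CPM in HHD, from 3.346 through 5.082 to 9.843 CPM in HHD_S and from 4.243 through 6.554 to 9.26 CPM in WD_S. In HHD_S the pig HHD_S 7 stood apart, the next library being at 5.788 CPM. The diet comparison gave a log2 fold change of 0.30 (SE 0.218, 95% interval -0.15 to 0.75, edgeR adjusted p = 0.9995), the smallest p of the 9 genes there. It was 0.31 within pool 3 and 0.30 within pool 4. Without HHD_S 7 it was 0.44 with an adjusted p of 0.9997. For the drug the value was -0.21 (SE 0.215).

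CD79B (ENSSSCG00000017283, chromosome 12, 15052966 to 15056441), the partner chain, had 12 to 70 reads per library. It lay between 0.6548 and 1.878 CPM in HHD (median 1.515), between 0.6083 and 3.049 in HHD_S (median 1.168) and between 0.8703 and 1.981 in WD_S (median 1.153). The group means differed by little, at 1.277 ± 0.4698 CPM (SD, n = 7), 1.283 ± 0.8059 CPM (SD, n = 8) and 1.229 ± 0.3742 CPM (SD, n = 7). The drug fold change was 0.08 on the log2 scale (SE 0.305) and -0.23 without HHD_S 7, the pig with 70 reads.

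MS4A1 (ENSSSCG00000021812, chromosome 2, 11216238 to 11229060), the CD20 antigen of B cells, is lost at the plasma cell stage. The HHD pigs ran from 1.521 through 1.977 to 3.024 CPM, the HHD_S pigs from 1.407 through 2.274 to 3.346 CPM and the WD_S pigs from 1.713 through 2.567 to 2.83 CPM. In HHD_S the values fell into 2 sets, 4 libraries between 1.407 and 1.753 CPM and 4 between 2.794 and 3.346 CPM, and each set held libraries of both pools. The log2 fold changes were 0.09 (SE 0.219, diet), 0.07 (SE 0.215, drug) and 0.17 (SE 0.229, both). MS4A1 was less variable than most of its neighbours in level, with 41.2% of the 500 closest genes having a lower biological coefficient of variation. RefSeq places MS4A4A over part of its span.

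**Figure D2:**
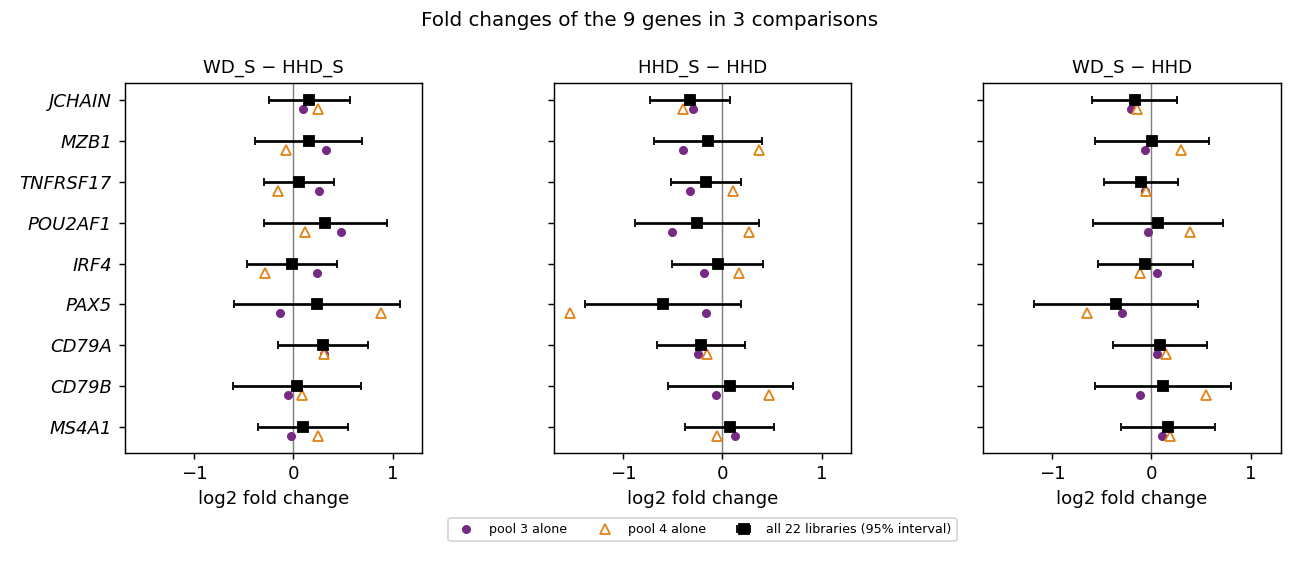
Log2 fold changes (horizontal axes) of the 9 genes in the 3 comparisons, with black squares and bars for the fit to all 22 libraries and its 95% interval, and with circles and triangles for pool 3 and pool 4 fitted alone. Each interval spans 0, and in HHD_S against HHD the pools lie on opposite sides of 0 for 6 of 9 genes, all but JCHAIN, PAX5 and CD79A.

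Read as a set, the 9 genes leaned upward in WD_S against HHD_S and downward in HHD_S against HHD, by amounts smaller than the standard errors of most members. In the diet comparison 8 of 9 fold changes were above 0 and 1 below, against 47.1% and 52.9% of all genes, with a median log2 fold change of 0.15 beside -0.01 over all genes. In the drug comparison 7 of 9 were below 0 and 2 above, against 47.4% and 52.6% of all genes, with a median of -0.17 beside 0.01. The exceptions were IRF4 in the first, at -0.01, and CD79B and MS4A1 in the second. PAX5, among the 7 below 0 in the drug comparison, passed the low-count filter mainly through HHD libraries. These 2 comparisons share the HHD_S libraries. In WD_S against HHD, 5 of 9 were above 0 and 4 below (49% and 51% of all genes), with a median of 0.01. Single libraries moved these medians: the diet median was 0.07 without HHD_S 6 and 0.29 without HHD_S 7, and it was 0.295 by limma. The median of WD_S against HHD was -0.11 without WD_S 2 and 0.16 without WD_S 3. Among the genes, the drug value of TNFRSF17 was -0.0416 without HHD 5, that of CD79A -0.064 without HHD 3 and that of POU2AF1 -0.115 without HHD_S 4. The diet value of JCHAIN was 0.0691 without HHD_S 6 and that of PAX5 0.0499 without WD_S 5. The members are not independent of each other, and the signs carry no test.

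The lean differed between the library pools without a test passing. Within pool 3, 8 of 9 fold changes of HHD_S against HHD were below 0 (median -0.25), and within pool 4, 4 of 9 were (median 0.10). Pool 4 held 3 HHD_S and 2 HHD libraries. In WD_S against HHD_S the pools had opposite signs for 6 of 9 genes, the exceptions being JCHAIN, POU2AF1 and CD79A. A test of the difference between pools called 0 of the 9 genes (0% of all genes) in each comparison. Unadjusted it put 0 under 0.05, against 0.756%, 2.16% and 1.49% of all genes for WD_S against HHD_S, HHD_S against HHD and WD_S against HHD. Without HHD_S 7 the drug comparison kept 8 genes, PAX5 having dropped below the filter, of which 7 were below 0 with a median of -0.27.

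Between the pools themselves, with group in the model, 7 of 9 genes had values below 0 for pool 4 against pool 3 and 2 above, where 50.1% and 49.9% of all genes did. JCHAIN averaged 1804 ± 485.9 CPM in pool 3 (SD, n = 13) and 1389 ± 386.1 CPM in pool 4 (SD, n = 9), that is -0.36 in log2 terms with group in the model (SE 0.169, adjusted p of 0.9159 by edgeR). It was the 1 gene of the 9 with an unadjusted p under 0.05, a level that 4.42% of all genes reached, and 0 of the 9 passed after adjustment (0% of all genes). DESeq2 put 2 of the 9 under 0.05 without adjustment (5.1% of all genes), limma 2 as well (15.2% of all genes), and both called 0. TNFRSF17 and PAX5 had the opposite sign, at 0.13 and 0.10.

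Individual pigs differed widely: over the 22 libraries the highest value was between 2.38 times (MS4A1) and 7.18 times (PAX5) the lowest. Library HHD_S 7 was among the 4 highest of 22 for 8 of the 9 genes, TNFRSF17 being the exception. HHD 1 was among the 4 highest for 6 and WD_S 1 for 5. At the other end, HHD_S 4 was among the 4 lowest for 5 genes, and HHD_S 6, HHD_S 8, HHD 4 and WD_S 3 for 4 each. HHD_S 4 combined the lowest POU2AF1 (3.041 CPM), CD79A (3.346 CPM) and CD79B (0.6083 CPM) of the series with its highest MS4A1 (3.346 CPM). Markers of other cell types stood at high, middle and low places in HHD_S 7. Its summed T and natural killer cell markers, 1217 CPM over 15 genes, were the highest of the 22 libraries. For these markers HHD_S pigs ranged from 416.4 to 1217 CPM and HHD pigs from 647.8 to 975.4 CPM. The dividing cell markers of HHD_S 7 were second, at 325.6 CPM over 6 genes. Its macrophage and dendritic cell markers were 9th, endothelial markers 13th, and goblet cell and enterocyte markers 15th. Its smooth muscle markers were 18th, fibroblast markers 19th and mast cell markers 20th. In WD_S 1 the macrophage and dendritic cell markers were the highest of the series and the mast cell and fibroblast markers second. Its endothelial markers were 3rd, smooth muscle 4th, goblet cell 5th and dividing cell markers 11th. Its T and natural killer cell markers and its enterocyte markers were 18th. The part of these markers in the members' values was not tested.

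**Figure D3:**
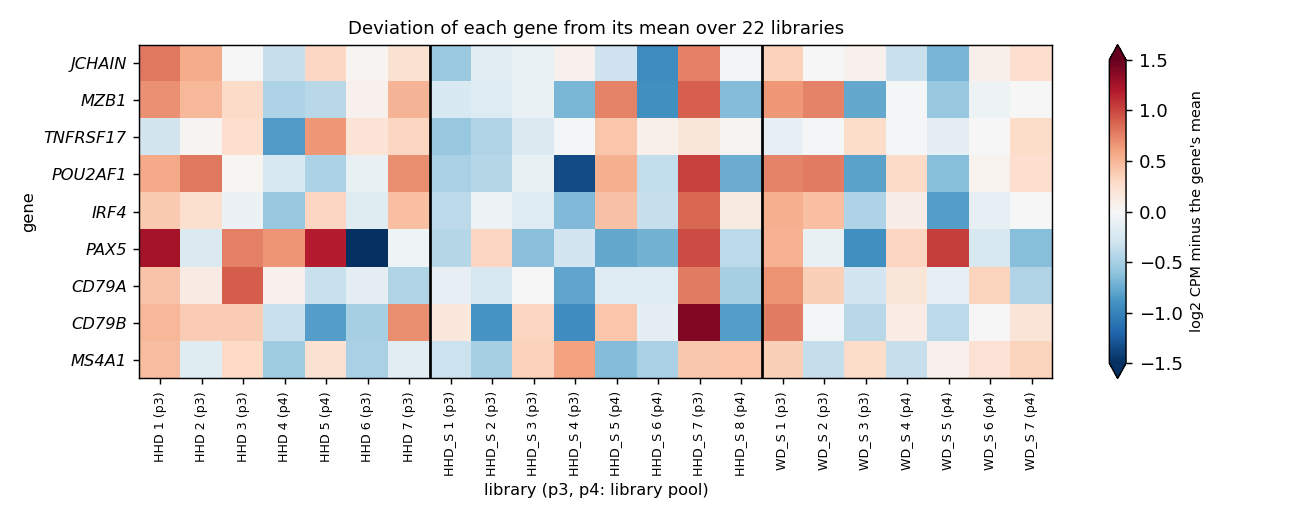
Log2 CPM of each gene (rows) in each library (columns, grouped as HHD, HHD_S and WD_S, with p3 and p4 for the pool) minus the gene's mean over the 22 libraries, red above and blue below. HHD_S 7 is red for all 9 genes and HHD_S 6 is blue for 8 of them, while HHD_S 4 is blue for POU2AF1, CD79A and CD79B and red for MS4A1.

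The genes did not vary as a single block. MZB1, POU2AF1, IRF4 and CD79B varied together from pig to pig: their 6 pairs had Pearson r of log2 CPM between 0.62 and 0.91 over the 22 libraries and Spearman rho between 0.61 and 0.91. The closest pair was MZB1 and POU2AF1 (r = 0.91, rho = 0.91), whose ratio stayed between 2.67 and 6.17. After group and pool were removed the 6 values of r lay between 0.61 and 0.93. They lay between 0.77 and 0.97 within pool 3 and between 0.15 and 0.92 within pool 4, the lowest there being IRF4 with CD79B. Without HHD_S 7 the lowest was 0.51, and without the 2 libraries farthest from the median of the first gene of each pair it was 0.50. All points come from the same libraries and share their depth and composition, so these values are descriptions and carry no p.

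The other genes sat looser or apart, without a sharp edge. The group of MZB1, POU2AF1, IRF4 and CD79B was picked from these same values. Its lowest r was 0.618, for IRF4 with CD79B. CD79A with POU2AF1, at 0.622, and CD79B, and JCHAIN with IRF4, lay above that. CD79A correlated with CD79B at 0.65 (0.69 in pool 3, 0.35 in pool 4) and with MZB1 at 0.61 (0.72 and 0.175). JCHAIN correlated most with IRF4 (r = 0.65, rho = 0.59) and MZB1 (r = 0.595, rho = 0.51), with 0.69 and 0.59 in pools 3 and 4 for IRF4 and 0.63 and 0.34 for MZB1. MS4A1 had r of -0.03 with MZB1 and -0.13 with POU2AF1, and its highest value was 0.55, with JCHAIN (rho = 0.59). The ratio of MZB1 to MS4A1 ran from 5.61 in HHD_S 4 to 35.9 in HHD_S 5, a 6.41-fold span, compared with 2.31-fold for MZB1 to POU2AF1. TNFRSF17, a plasma cell gene, had over all 22 libraries its highest r with IRF4, at 0.40 (0.18 in pool 3, 0.73 in pool 4), and 0.15 with MZB1 (0.14 and 0.33). Its r with JCHAIN was 0.29, and 0.50 without the 2 libraries farthest from the JCHAIN median. For PAX5 the small counts limit any correlation, the highest being 0.47 with CD79A.

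**Figure D4:**
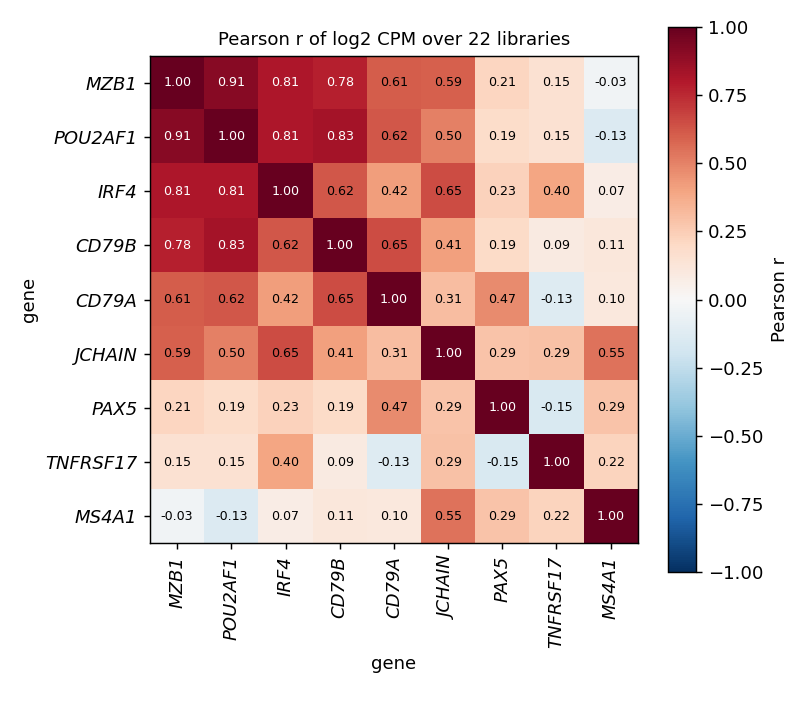
Pearson r of log2 CPM over the 22 libraries for each pair of the 9 genes (both axes), from blue at -1 to red at 1, with the value printed in each cell. MZB1, POU2AF1, IRF4 and CD79B form the red corner with r from 0.62 to 0.91, and the rows of TNFRSF17 and MS4A1 are pale.

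**Figure D5:**
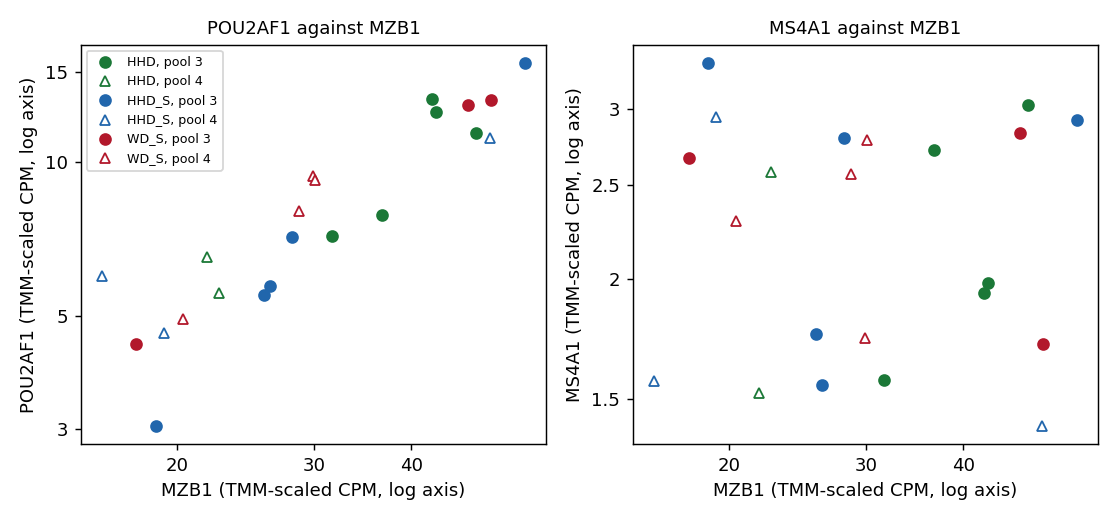
CPM of POU2AF1 (left) and MS4A1 (right) against MZB1, all on log axes, with 1 point per library coloured by group and shaped by pool. POU2AF1 follows MZB1 (r = 0.91) and MS4A1 does not (r = -0.03).

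Scores of wider gene lists gave a graded order of the members over all libraries, less evenly within pools. A score was taken of the 18 tested plasma cell secretion genes other than the members, among them XBP1, PRDM1, DERL3 and SDC1. Other cells of the mucosa also use XBP1 and SDC1, so the score is not specific to plasma cells. It correlated at 0.88 with MZB1, 0.84 with POU2AF1, 0.84 with CD79B and 0.71 with IRF4. It had 0.68 with JCHAIN (0.78 and 0.23 in pools 3 and 4), near the value for IRF4, and 0.54 with CD79A (0.61 and -0.04). It had 0.27 with PAX5, 0.16 with TNFRSF17 and 0.13 with MS4A1. Within pool 3 the first 4 had 0.87, 0.89, 0.87 and 0.90, and within pool 4 they had 0.85, 0.74, 0.68 and 0.29 in the same order, the lowest being IRF4. A score of 16 genes of IgA survival, homing and transport had 0.82 with MZB1 (0.84 and 0.82 in pools 3 and 4). It had 0.83 with POU2AF1 (0.89 and 0.54), 0.78 with IRF4 (0.82 and 0.74) and 0.70 with CD79B (0.76 and 0.27). With CD79A it had 0.58 (0.70 and -0.24) and with JCHAIN 0.57 (0.51 and 0.65). With PAX5, TNFRSF17 and MS4A1 it had 0.24, 0.22 and 0.08. High values for MZB1, POU2AF1, IRF4 and CD79B were not particular to these lists. A score of B cell receptor signalling genes had 0.71 with CD79B, 0.67 with MZB1, 0.66 with POU2AF1 and 0.61 with IRF4. It had 0.47 with CD79A, 0.46 with JCHAIN, 0.19 with MS4A1, 0.18 with TNFRSF17 and 0.05 with PAX5. Germinal centre and follicle genes had 0.67 with MZB1, 0.66 with CD79B, 0.64 with POU2AF1, 0.64 with IRF4 and 0.2 with MS4A1. B cell transcription factors had 0.65 with MZB1, 0.62 with POU2AF1, 0.58 with IRF4, 0.52 with CD79B and 0.01 with MS4A1. Dividing cell markers had 0.74 with MZB1 (0.77 and 0.54), 0.69 with IRF4, 0.67 with POU2AF1, 0.62 with CD79B and 0.55 with JCHAIN. They had 0.32 with TNFRSF17, 0.21 with CD79A, 0.2 with PAX5 and 0.17 with MS4A1. Macrophage and dendritic cell markers had 0.70 with POU2AF1 (0.69 and 0.78), 0.56 with MZB1 and 0.58 with CD79B. They had 0.63 with CD79A (0.70 and 0.36) and 0.43 with IRF4 (0.59 and 0.02). Their part in the members' values was not tested. CD79A correlated with goblet cell markers at 0.64 (0.56 and 0.85 within pools), where MZB1 had 0.41 and MS4A1 -0.30. This was not particular to goblet cells. CD79A had 0.67 with endothelial markers (0.63 and 0.74), 0.62 with fibroblast markers (0.55 and 0.78) and 0.53 with smooth muscle markers (0.46 and 0.69). The Spearman values were 0.85 for the secretion score with MZB1 and 0.73 for goblet cell markers with CD79A. These are descriptions over the same 22 libraries.

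By the highest Pearson r over 22 libraries, among the 11020 named genes outside the set whose log2 CPM averaged 1 or more, JCHAIN was most like TMEM263 (0.83), SEC61B (0.80), SPCS2 (0.79), HSDL2 (0.77) and C4BPA (0.77). SEC61B is a subunit of the channel, and SPCS2 of the signal peptidase, through which secreted proteins enter the endoplasmic reticulum. CD79A was most like FERMT3 (0.86), an integrin activator of blood cells, BMP6 (0.82), CCNJL (0.81), SLIT3 (0.81) and ASPH (0.81). MS4A1 was most like NUP54 (0.78), CLGN (0.76), UBE2W (0.76), C8orf76 (0.76) and SMC3 (0.76). The 3 members shared no gene among their 5 closest. Lists of 5 out of 11020 candidates can easily share none, so this says little about the members. The median r over all candidates was 0.01, -0.03 and -0.002.

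Genes around the members in the same pathways gave no call either. Of 22 genes of B cell receptor signalling, 0 passed the test in any comparison by edgeR and 0 had an unadjusted p under 0.05. In WD_S against HHD_S 11 were above 0 and 11 below (median -0.001), and in HHD_S against HHD the split was again 11 to 11 (median 0.005). PIK3AP1, an adaptor between the receptor and phosphoinositide 3-kinase, had the smallest p for diet, with 0.22 on the log2 scale (SE 0.138). Its WD_S libraries lay between 25.01 and 26.73 CPM, while the HHD_S libraries ran from 16.93 to 37.28 CPM. BCL10 had the smallest p for the drug (0.14, SE 0.107) and LYN, a receptor-proximal kinase, for both together (0.19, SE 0.111).

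Among 15 B cell transcription factors, 2 had an unadjusted p under 0.05 by edgeR for WD_S against HHD_S (2.92% of all genes). After adjustment 0 passed. The smaller p belonged to SPI1 (PU.1), a factor of B cells and macrophages. It stood between 30.89 and 60.61 CPM in WD_S (median 45.05), between 22.07 and 37.4 in HHD_S (median 31.52) and between 23.87 and 52.43 in HHD (median 43.62). The log2 fold change of SPI1 was 0.61 (SE 0.184, edgeR adjusted p = 0.9995), and it was also the factor with the smallest p for the drug, at -0.34 (SE 0.184). In the same diet comparison macrophage and dendritic cell markers had 11 of 11 fold changes above 0 (median 0.25), against 47.1% of all genes. Their summed level ran from 784.5 to 1448 CPM in WD_S and from 650.3 to 1161 CPM in HHD_S. Their part in the SPI1 value was not tested. For WD_S against HHD the smallest p of the list was that of TCF3 (0.20, SE 0.133).

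Follicle and germinal centre genes were sparse. Of 20 listed, 16 were in the files under their names and 14 were tested, with 0 called and 0 with an unadjusted p under 0.05 in each comparison. CR2, a complement receptor of B cells and follicular dendritic cells, averaged 0.866 ± 0.249 CPM among HHD pigs (SD, n = 7) and 0.682 ± 0.288 CPM among HHD_S pigs (SD, n = 8), and had the smallest p for the drug (-0.34, SE 0.252). S1PR2 had the smallest p in the other 2 comparisons, with 0.28 (SE 0.187) and 0.29 (SE 0.195).

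The plasma cell secretion list leaned with the members in the drug comparison and less so in the others. In WD_S against HHD_S 10 of its genes were above 0 and 8 below (median 0.03, members 0.15). In WD_S against HHD 12 were below 0 and 6 above (median -0.14, members 0.01). Of 18 tested genes 15 were below 0 for HHD_S against HHD (47.4% of all genes). Their median was -0.08, with -0.13 in pool 3 and 0.06 in pool 4. By edgeR 0 were called, and 1 had an unadjusted p under 0.05 (1.81% of all genes). That gene was XBP1, the factor that expands the secretory machinery, which ran from 231.9 through 351.8 to 468.5 CPM in HHD and from 231.2 through 250.6 to 402.6 CPM in HHD_S. For XBP1 the drug comparison gave -0.32 on the log2 scale (SE 0.132) and an adjusted p of 0.9993 by edgeR. Goblet cells also use XBP1, and their markers had 7 of 7 fold changes below 0 in this comparison (median -0.38), with summed levels of 1844 to 4509 CPM in HHD and 1470 to 4067 CPM in HHD_S. Their part in the XBP1 value was not tested. SDC1, carried by plasma cells and by epithelium, had the smallest p of the list for diet (0.39, SE 0.180) and for both together (0.52, SE 0.191, edgeR adjusted p = 0.9997).

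Of 21 genes of IgA survival, homing and transport, 20 were in the files and 16 were tested, with 0 called and 0 with an unadjusted p under 0.05. For HHD_S against HHD, 13 of 16 were below 0 (median -0.05), against 47.4% of all genes. The smallest p there was that of CCL28 (-0.37, SE 0.232), a chemokine that draws IgA plasma cells to mucosa, and for diet that of TNFSF13 (0.19, SE 0.125), also called APRIL, a ligand of TNFRSF17. CCR9, the gut-homing receptor, had the smallest p for WD_S against HHD (-0.27, SE 0.146). PIGR averaged 2350 ± 843 CPM among HHD pigs (SD, n = 7), 1820 ± 1090 CPM among HHD_S pigs (SD, n = 8) and 1960 ± 822 CPM in WD_S (SD, n = 7). It was added after its values were seen because it carries the product of JCHAIN-bearing cells. Of gene names starting like immunoglobulin genes the files held 2. One of them, IGLV2-33, had 0 reads in each of the 22 libraries, and the other, IGHMBP2, encodes a helicase and not an immunoglobulin.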

How the data were processed

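The submitters sequenced jejunal RNA as 150-base single reads (TruSeq version 2, NextSeq) after requiring an RNA quality score over 8, and used a CLC workbench with the annotated Sscrofa11.1 genome, per the labels' protocols. Not given in the sources used here are the workbench's version, its mapping settings and its handling of strand. The deposited values are unnormalised counts of reads unique to a gene's exons, as their headers state. Of the identifiers, 17332 were named in the files, 1050 through a gene table, and 5976 stayed unnamed. Coordinates come from RefSeq by symbol.

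Counts were filtered with filterByExpr (minimum count 10) and fitted with edgeR 4.0.16 in R 4.3.3 (TMM, robust quasi-likelihood, all 3 groups, library pool as a term, 18 residual degrees of freedom). P values were adjusted by Benjamini-Hochberg over 13626 genes, with 0.05 as threshold. Correlations and list scores used log2 CPM. Alternatives used DESeq2 1.42.0, limma 3.58.1, other scaling and filters, each pool alone and leaving out each library.

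No label says which pigs were boars or gilts, so sex was not modelled, and nothing beyond separate sample numbers shows that libraries came from separate animals. P values then measure the spread between these samples. The members and lists were chosen with earlier results of these data known. Named genes were the 9 members, the smallest p per pathway list and comparison, any pathway gene past the threshold (none), and the 5 genes most like JCHAIN, CD79A and MS4A1.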

Additional observations from a re-analysis of the deposited data

Results flagged for a closer look

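Gaps between the most extreme library and its nearest neighbour, set against the range of the group, were examined for the 9 genes and the 12 named pathway genes in each group, 63 sets in all. Chance marks about 1 set in 20 where values are normally distributed. CPM on their plain scale need not be, and the 12 pathway genes were chosen by their p in these data. That rate is therefore only a guide. Here 6 sets were marked, of which 4 belong to the 9 genes. HHD_S 7 accounts for 5 of the 6 and stood above the other HHD_S pigs. It held 9.843 CPM of CD79A (next 5.788), 3.049 CPM of CD79B (next 1.543), 2648 CPM of JCHAIN (next 1640), 37.28 CPM of PIK3AP1 (next 24.37) and 402.6 CPM of XBP1 (next 295.4). The remaining one was WD_S 1, with 1.981 CPM of CD79B (next 1.326). These genes come from the same libraries, so the marks are not independent.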

How the results depend on the processing

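The 9 genes had 0 calls in every refit that was run: 12 alternatives and 22 fits without 1 library for each comparison, 9 and 22 for the joint test, 8 and 22 for pool 4 against pool 3, and 6 alternatives for the interaction with pool. Of 909 refitted log2 fold changes 841 kept their sign and 68 changed it, with 0 calls gained; the smallest adjusted p was 0.5032 (JCHAIN, HHD_S against HHD, limma). The 68 belong to results of at most 0.257 in size, and the cause was not tested. PAX5 was not among the tested genes with a filter of 1 CPM in 7 libraries, with only the 2 groups compared, or without HHD_S 7. Without the pool term the values with the other sign were for WD_S against HHD_S CD79B -0.0617 and for WD_S against HHD MZB1 -0.134, POU2AF1 -0.0508, CD79A -0.00407, CD79B -0.0452. In pool 3 alone the values with the other sign were for WD_S against HHD_S IRF4 0.243, PAX5 -0.134, CD79B -0.0545, MS4A1 -0.0201, for HHD_S against HHD CD79B -0.0635 and for WD_S against HHD MZB1 -0.0628, POU2AF1 -0.0297, IRF4 0.0571, CD79B -0.118. In pool 4 alone the values with the other sign were for WD_S against HHD_S MZB1 -0.071, TNFRSF17 -0.156 and for HHD_S against HHD MZB1 0.369, TNFRSF17 0.103, POU2AF1 0.27, IRF4 0.167, MS4A1 -0.0592. Upper-quartile scaling gave for WD_S against HHD MZB1 -2.06e-05. With limma and quality weights the values with the other sign were for WD_S against HHD_S IRF4 0.19 and for HHD_S against HHD CD79B -0.24, MS4A1 -0.198. A filter of 1 CPM in 7 libraries gave for WD_S against HHD_S IRF4 0.00279. The fits without 1 library gave both signs for WD_S against HHD_S CD79B -0.0918 to 0.283, IRF4 -0.118 to 0.133, for HHD_S against HHD IRF4 -0.222 to 0.0439, CD79B -0.23 to 0.208, MS4A1 -0.0198 to 0.16 and for WD_S against HHD MZB1 -0.11 to 0.176, POU2AF1 -0.0417 to 0.245, CD79A -0.0112 to 0.225, CD79B -0.0241 to 0.259, IRF4 -0.177 to 0.0399, TNFRSF17 -0.271 to 0.0347. The median of the 9 for HHD_S against HHD was 0.103 in pool 4. Over all genes edgeR called 0, 0 and 1. For WD_S against HHD_S the count was 2 without the pool term, 4 by DESeq2, 1 by limma and 0 to 2 without 1 library. For HHD_S against HHD it was 1 by DESeq2. For WD_S against HHD it was 0 in either pool alone, with total counts and with upper-quartile scaling, 2 by DESeq2, and 0 to 1 without 1 library, being 0 in 17 of 22 such fits. No paired analysis was possible because the labels give no replicate numbers that groups share. Depth limits PAX5, at 3 to 18 reads per library, and CD79B, at 12 to 70.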

Other observations

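Markers of the other cell types in the mucosa had 0 calls by edgeR in each comparison. Of all genes, 47.4% were below 0 for HHD_S against HHD and 52.9% for WD_S against HHD_S. For HHD_S against HHD, 6 of 6 fibroblast markers (median log2 fold change -0.35), 6 of 6 markers of blood and lymphatic endothelium (-0.27) and 6 of 6 smooth muscle markers (-0.14) were below 0, as were 9 of 11 macrophage and dendritic cell markers (-0.17) and 7 of 7 goblet cell markers (-0.38), while 14 of 15 T and natural killer cell markers were above 0 (0.09). Of the remaining lists, 5 of 6 dividing cell markers (-0.12), 3 of 8 enterocyte markers (0.03), 2 of 4 mast cell markers (-0.06) and 0 of 1 tested pancreas and liver marker (0.12) were below 0. For WD_S against HHD_S, 13 of 15 T and natural killer cell markers were below 0 (-0.215), while 11 of 11 macrophage and dendritic cell markers (0.25), 4 of 4 mast cell (0.20), 6 of 6 smooth muscle (0.09), 6 of 6 endothelial (0.12), 5 of 6 fibroblast (0.28), 5 of 7 goblet cell (0.28), 5 of 8 enterocyte (0.07) and 3 of 6 dividing cell markers (-0.005) were above 0, and the 1 pancreas and liver marker was below 0 (-0.20). The macrophage, mast cell, smooth muscle, endothelial, fibroblast and goblet cell lists had medians of the same sign as the members' own in both comparisons. The HHD_S libraries serve in both comparisons.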
